A study of Bos taurus with 6 samples.

Results

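The expression of 9 genes of the p53 pathway was examined in bovine blastocysts derived from oocytes matured with or without melatonin (MT). The genes were MDM2 and MDM4, the main inhibitors of p53, and CDKN1A, GADD45A, GADD45B, GADD45G, SESN1, SESN2 and TP53INP1, which p53 can induce. The gene for p53 itself was not analysed here. They were taken by their gene names from a table of 36075 genes, and each name matched a single row, so all 9 had values. All 9 reached a level of at least 1 TPM (a transcript abundance scaled by gene length and library total) in 3 or more libraries and were tested among the 11953 genes that did so. Control blastocysts came from Bos taurus oocytes matured for 22 h without MT, and MT-treated blastocysts from oocytes exposed during those 22 h to 1e-07 mol/L MT, so that "after MT" below means in the latter blastocysts. In both groups the oocytes came from slaughterhouse ovaries and were fertilized and cultured in vitro to the blastocyst stage. There were 3 libraries a group, each made from 3 pooled blastocysts of an in vitro production run. Within a run the treatments were performed side by side, so libraries of both groups can share a run. A pool mixes trophectoderm, inner cell mass and hypoblast, so fewer cells of a type and less RNA per cell cannot be told apart.

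p53 is a transcription factor that is kept low in unstressed cells, because MDM2, a ubiquitin ligase, marks it for degradation and MDM4, a relative of MDM2, covers its activation domain and assists MDM2. When DNA is damaged or nutrients and redox state are disturbed, p53 escapes these inhibitors and induces genes that halt the cell cycle, assist repair, restrain growth signaling or promote cell death. MDM2 is itself a p53 target, which closes a negative feedback loop, and mouse embryos that lack MDM2 or MDM4 die early in a p53-dependent manner.

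The libraries of the groups differed across most of the transcriptome, and the values of the 9 genes were read against this background. Genes above 0 TPM numbered 8854 to 8953 in the control and 14372 to 14408 in the MT-treated libraries. Of the tested genes, 95.7% differed at an adjusted p-value under 0.05 (limma on log2(TPM + 1) with Benjamini-Hochberg adjustment), 61.6% being higher and 34.1% lower in MT-treated blastocysts. The groups did not overlap for 96.1% of the tested genes, and 33.8% were called higher from a level listed at 0 in all controls and 3.01% lower to a level listed at 0 in all MT-treated libraries. TPM holds no counts, so the number of reads behind a value cannot be read from it, and a gene listed at 0 cannot be said to be silent. Of 20 genes used by every cell, 0 were listed at 0 throughout a group. Many of these 20 are abundant, so this does not show that the zeros spare basic genes. Of the cyclins named below, CCNA2 and CCNE1 were listed at 0 in all controls, while CCNE2 and CCND2 were not. Of 8 trophectoderm markers tested, 6 were higher and 2 lower after MT, and of 6 inner cell mass markers 3 were higher, 2 lower and 1, POU5F1, was not called. CDX2 of the first list and NANOG of the second were listed at 0 in all controls, with 15.0 to 17.2 TPM and 8.23 to 8.93 TPM after MT, while ELF3 and DPPA3 were lower after MT, with means of 57.7 and 11.3 TPM and of 196 and 108 TPM. KRT8 and KRT18, keratins of the trophectoderm, had at least 2726 TPM in every library. Of 6 hypoblast markers, 4 were tested and all 4 were higher in MT-treated blastocysts, and their list summed to 205 to 208 TPM in controls and 524 to 528 TPM after MT. FN1 alone gave means of 206 and 461 TPM of these sums. The other tested markers, PDGFRA, HNF4A and GATA6, had at most 0.44 TPM in controls. They reached 1 TPM only in MT-treated libraries, so the filter fixed their direction. Of the 9 cumulus and granulosa cell markers in the table, 6 were listed at 0 in all libraries, and FSHR and PTGS2 alone were tested. PTGS2 had 128 to 129 TPM in controls and 171 to 177 TPM after MT and was higher, and FSHR had 17.2 to 19.2 and 15.0 to 17.1 TPM and was lower. None of the 9 maternal oocyte transcripts in the table was tested, and their sum was at most 1.64 TPM in any library. The part of cell type content in the differences below was not tested.

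Between the groups, the levels of the p53 inhibitors differed in opposite directions. MDM2 was listed at 0 in control blastocysts and above 0 after MT, and MDM4 had at most 0.05 TPM after MT. Rises from 0 in all controls were called for 33.8% of all tested genes. GADD45A, GADD45G, CDKN1A and SESN2 were lower after MT, although SESN2 was not called after median centring. SESN1 was higher after MT, and GADD45B and TP53INP1 were also higher as deposited, but both were lower after quantile normalization.

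MDM2 (ENSBTAG00000010422) was listed at 0 in all controls and had 35.8, 32.9 and 35.2 TPM after MT (limma, adjusted p = 7.36e-10). These MT-treated values exceeded 77.0% to 78.6% of the genes above 0 in the same libraries. MDM4 (ENSBTAG00000006255) showed the opposite order. It had 50.1, 50.4 and 50.2 TPM in controls and 0.05, 0 and 0 TPM after MT (limma, adjusted p = 5.70e-10). The control values exceeded 68.6% to 69.4% of the genes above 0 there. The groups lay fully apart for both inhibitors. No fold change is given for MDM2 or MDM4, because the level in the lower group is at or next to 0. The sum of both inhibitors was 50.1 to 50.4 TPM in controls and 32.9 to 35.8 TPM after MT, an MT-treated mean of 0.689 times the control mean. With the libraries scaled to equal medians, an alternative chosen after seeing the data, these sums overlapped, at 42.3 to 42.9 and 38.9 to 42.4 TPM, with a ratio of 0.960. MDM4 made up 100% of this sum in every control library, and MDM2 at least 99.86% of it in every MT-treated library. The sizes of the fitted differences exceeded those of 94.9% of all tested genes for MDM2 and 97.6% for MDM4, although both depend on the pseudocount.

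**Figure D1:**
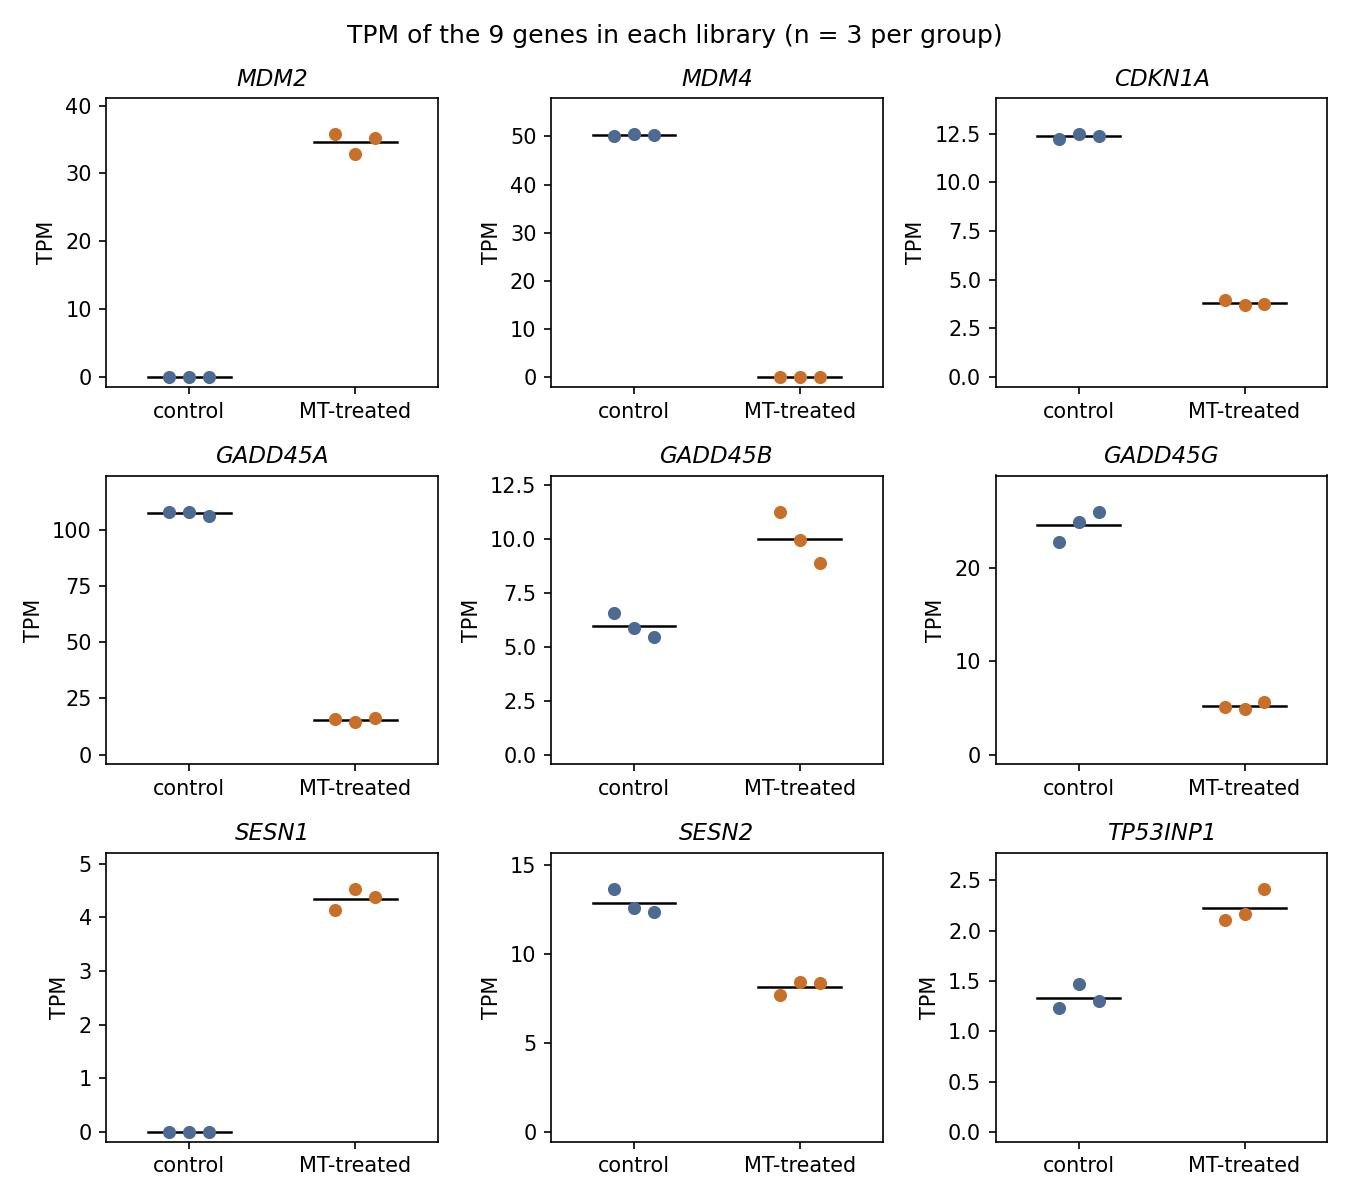
TPM (vertical axis, linear and with its own range in each panel) of the 9 genes in 3 control and 3 MT-treated libraries. Points are libraries and lines are group means. MDM2 and SESN1 lie at 0 in every control library, MDM4 lies at 0 to 0.05 TPM after MT, and the groups do not overlap in any panel.

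CDKN1A (ENSBTAG00000008353) encodes p21, which binds cyclin-dependent kinases and PCNA and arrests the cell cycle. It had 12.2, 12.5 and 12.4 TPM in controls and 3.95, 3.69 and 3.75 TPM after MT. Every MT-treated value was below every control value. The mean of CDKN1A was 12.4 ± 0.136 TPM in controls and 3.80 ± 0.136 TPM after MT (SD, n = 3 each), a control level 3.25 times the MT-treated level, with a log2 fold change of -1.48 ± 0.03 (SE, limma, adjusted p = 5.04e-08), which was -0.998 after median centring and -2.89 after quantile normalization. A difference smaller in size was found in 39.6% of all tested genes. Relative to other genes above 0, CDKN1A stood at the 42.3 to 43.0 percentile in control and at the 31.7 to 32.6 percentile in MT-treated libraries.

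The GADD45 genes encode small stress sensors that bind the kinase MAP3K4 and PCNA and take part in DNA demethylation and repair. GADD45A (ENSBTAG00000013860), the member with the best known p53 site, was the most abundant of the 9 genes in control blastocysts, with 108, 108 and 106 TPM. After MT it had 15.8, 14.4 and 16.1 TPM. The means were 107 ± 1.07 and 15.5 ± 0.919 TPM (SD, n = 3 each), 6.93 times lower after MT, with a log2 fold change of -2.72 ± 0.04 (SE, limma, adjusted p = 9.17e-09). GADD45G (ENSBTAG00000003033) had 22.8, 24.9 and 25.97 TPM in controls and 5.14, 4.94 and 5.63 TPM after MT. It fell in the same direction, by 2.03 on the log2 scale (SE 0.06, limma, adjusted p = 2.17e-07), and the control mean was 4.69 times the MT-treated mean.

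GADD45B (ENSBTAG00000025462), which is induced by TGF-beta and NF-kappaB signaling as well as by stress, moved the other way in the deposited values. It had 6.55, 5.89 and 5.45 TPM in controls and 11.3, 9.94 and 8.87 TPM after MT. The MT-treated values were all higher, and the mean rose 1.68 times, with a log2 fold change of 0.66 ± 0.10 (SE, limma, adjusted p = 0.000661), whereas after quantile normalization the log2 fold change was -1.5 (limma, adjusted p = 8.32e-05). GADD45B also had a wider relative spread after MT than the other genes with values above 0 in all MT-treated libraries, with a coefficient of variation of 9.29% in control and 11.95% in MT-treated libraries.

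The summed GADD45 level was 137 to 139 TPM in controls and 29.3 to 32.2 TPM after MT, and 116 to 118 and 34.6 to 38.1 TPM at equal library medians. GADD45A gave 77.8% ± 0.752 of this sum in control and 50.3% ± 2.04 in MT-treated blastocysts (SD, n = 3 each). GADD45B gave 4.33% ± 0.410 in controls and 32.6% ± 3.22 after MT (SD, n = 3 each), and the share of GADD45G overlapped between the groups, at 16.6% to 18.9% and 16.0% to 18.4%. The ratio of GADD45A to GADD45B was 16.5 to 19.4 in controls and 1.404 to 1.82 after MT. These shares and ratios are taken within a library, so no factor common to all genes of a library alters them.

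**Figure D2:**
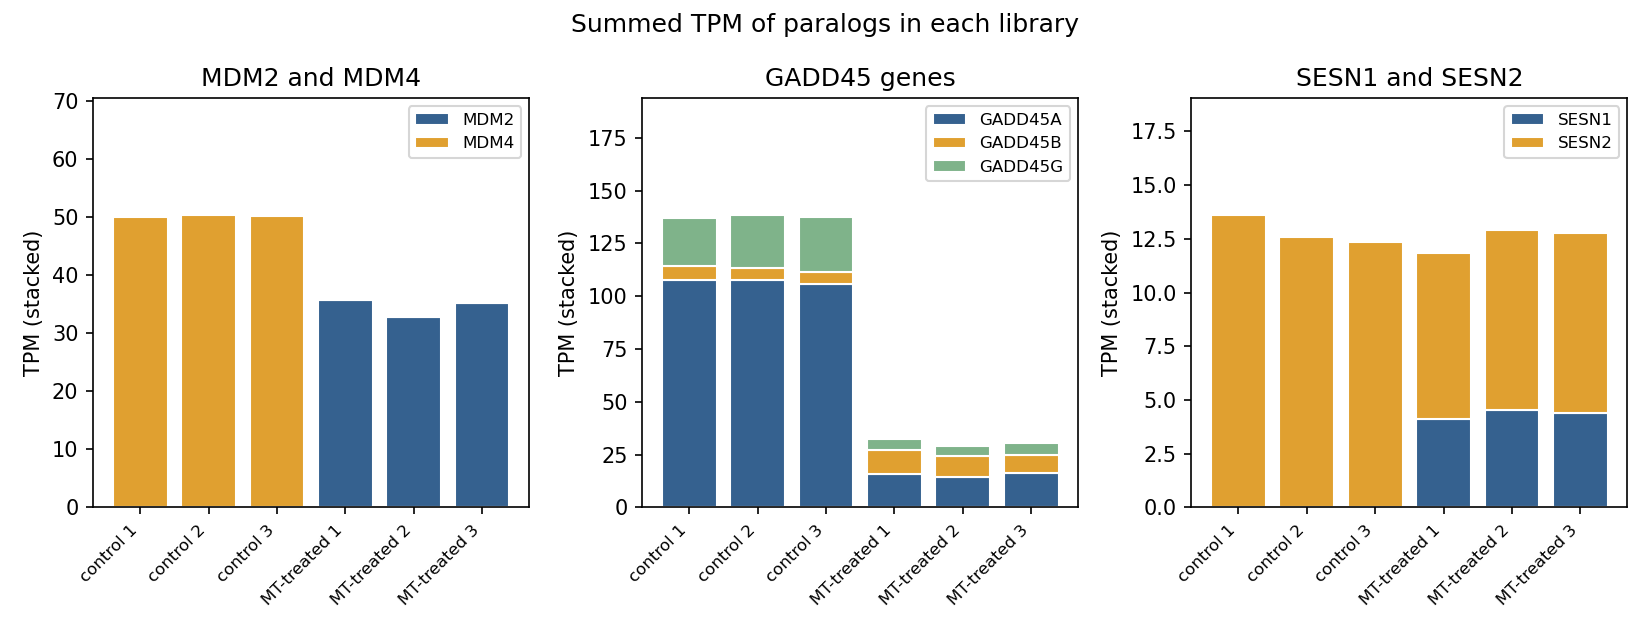
Stacked TPM as deposited (linear axis from 0) of the inhibitors MDM2 and MDM4, of the 3 GADD45 genes and of the sestrins SESN1 and SESN2 in each of 6 libraries. The MDM sum is made of MDM4 in control and of MDM2 in MT-treated libraries, the GADD45 sum falls from 137 to 139 TPM to 29.3 to 32.2 TPM, and the sestrin sums overlap between the groups.

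The sestrins restrain mTORC1 by binding GATOR2, favor AMPK activity and lower oxidative stress. SESN1 is a classical p53 target, while SESN2 is also induced by ATF4 and NRF2. SESN1 (ENSBTAG00000003015) was listed at 0 in all controls and had 4.13, 4.52 and 4.38 TPM after MT (limma, adjusted p = 6.35e-09). This level exceeded 33.2% to 34.1% of the genes above 0 in those libraries, so SESN1 rose to a low level. SESN2 (ENSBTAG00000002363) had 13.6, 12.6 and 12.4 TPM in controls and 7.69, 8.41 and 8.38 TPM after MT. The groups lay apart, and SESN2 fell from 12.9 ± 0.664 to 8.16 ± 0.407 TPM (SD, n = 3 each), with a log2 fold change of -0.60 ± 0.05 (SE, limma, adjusted p = 4.52e-05), but this difference was -0.12 and not called after median centring (limma, adjusted p = 0.0714) and -2.41 after quantile normalization (limma, adjusted p = 7.64e-08). In MT-treated libraries SESN1 made up 34.3% to 34.96% of the sestrin sum. That sum overlapped between the groups, with 12.4 to 13.6 TPM in controls and 11.8 to 12.9 TPM after MT, but lay apart at equal library medians, at 10.4 to 11.5 and 14.0 to 15.3 TPM. The paralog SESN3, which is not among the 9 genes, was listed at 0 in all 6 libraries.

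TP53INP1 (ENSBTAG00000055158), a cofactor that binds p53 and ATG8 proteins and promotes cell death and autophagy, was the least abundant of the genes that were above 0 in all libraries. It had 1.23, 1.47 and 1.3 TPM in controls and 2.11, 2.17 and 2.41 TPM after MT. The 3 MT-treated values were higher than the 3 control values, and the mean rose 1.67 times with a log2 fold change of 0.47 ± 0.06 (SE, limma, adjusted p = 0.000230), but the log2 fold change was -1.63 after quantile normalization (limma, adjusted p = 1.48e-07). At levels this near the pseudocount, a log2 fold change understates the change. TP53INP2, its paralog outside the 9 genes, had at most 0.18 TPM in any library.

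Ordered by TPM, GADD45A led in control blastocysts and was followed by MDM4, GADD45G, SESN2, CDKN1A, GADD45B and TP53INP1. SESN2 and CDKN1A overlapped and could not be ranked, while the other neighbours in this order lay apart. In MT-treated blastocysts the order was MDM2, GADD45A, GADD45B, SESN2, GADD45G, SESN1, CDKN1A, TP53INP1 and MDM4, and no neighbours overlapped.

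All 9 genes were called, beside 95.7% of all tested genes, and for all 9 the groups did not overlap, beside 96.1%. Of the 9 genes 4 were higher and 5 lower (44.4% and 55.6%), beside 61.6% and 34.1% of all tested genes. Differences of 2-fold or more, on the log2(TPM + 1) scale, were found for 6 of the 9 genes (2 higher and 4 lower) and for 70.6% of all tested genes (51.0% higher and 19.6% lower). The median log2 fold change was -0.60 over the 9 genes and 1.12 over all tested genes, and it was -0.12 and 1.597 after median centring and -2.41 and 0.51 after quantile normalization. As deposited, the median size of the difference was 2.03 over the 9 genes and 1.98 over all tested genes. MDM2 and SESN1, 2 of the 9 genes, were higher from 0 in all controls, beside 33.8% of all tested genes. The share called in either direction and the median size were thus near those of the tested genes as a whole. An exact two-sided permutation test over the libraries gave p = 0.1 for each of the 9 genes, the smallest value that 3 libraries against 3 allow.

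The size of most of the differences depended on the scaling. Among genes that reached 1 TPM in all libraries, the MT-treated minus control difference of the library medians was -0.48 on the log2 scale, and median centring removes this shift. Under centring 4 of the 9 genes were higher and 4 lower, beside 70.4% and 25.4% of all tested genes. Quantile normalization, which gives all libraries the same distribution of values, left 2 higher and 7 lower, beside 55.3% and 38.5%. The directions of MDM2, MDM4, SESN1, CDKN1A, GADD45A, GADD45G and SESN2 were the same under all 3 scalings, although SESN2 was not called after centring. Their sizes moved, and after quantile normalization the log2 fold change was -3.34 for GADD45G. That of SESN1 depends on the pseudocount as well, since its controls are at 0. GADD45B and TP53INP1, which quantile normalization reversed, had log2 fold changes of 1.14 and 0.95 after centring. As a restriction added once the data had been seen, only genes above 0 in each library were kept, which left 6 of the 9 genes. Of these, 2 were higher and 4 lower, beside 40.6% and 52.4% of the 6925 tested genes kept.

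**Figure D3:**
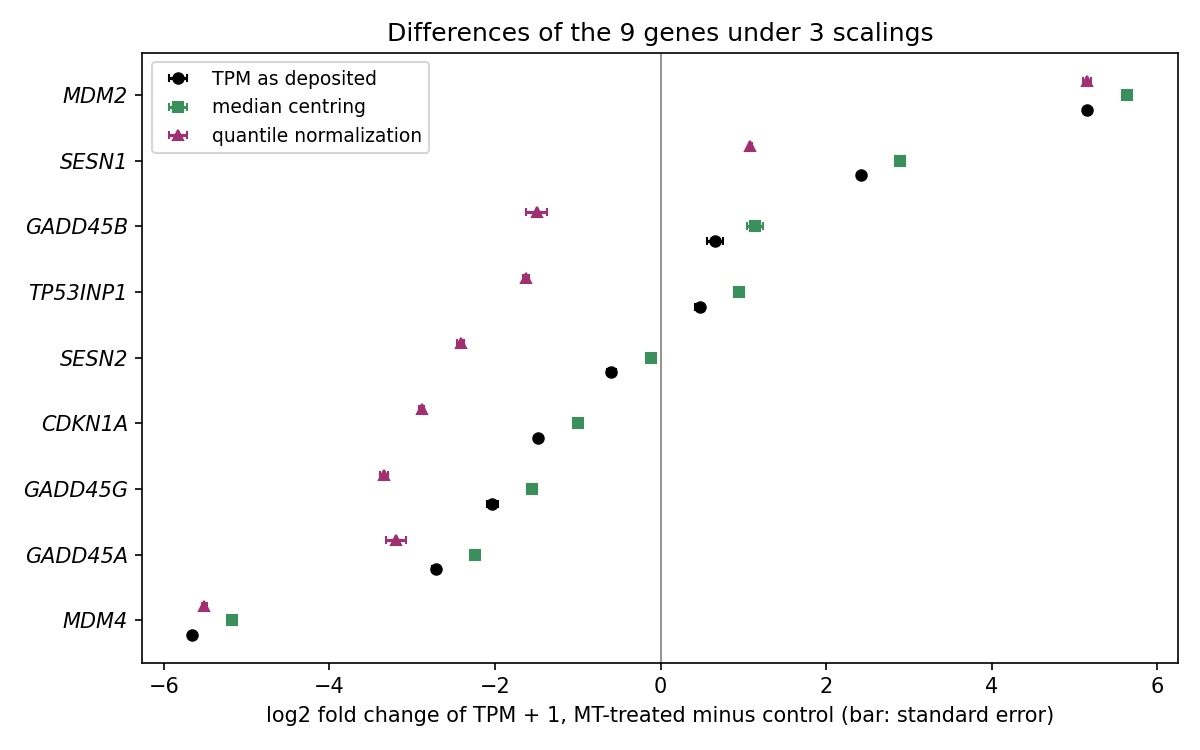
Log2 fold change of TPM + 1 (horizontal axis, MT-treated minus control, with standard errors) of the 9 genes for TPM as deposited, after median centring and after quantile normalization (n = 3 libraries per group). GADD45B and TP53INP1 lie right of 0 for the deposited values and at -1.5 and -1.63 after quantile normalization, and SESN2 lies at -0.12 after centring.

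Other targets of p53 were described from a list of 37 genes. The table held 35 of them and 27 were tested, and 20 of these rose and 7 fell after MT (74.1% and 25.9%), beside 61.6% and 34.1% of all tested genes. In controls, 11 of those 20 were at 0 throughout, beside 4037 of the 7367 tested genes called higher. The median log2 fold change of the list was 1.27 beside 1.12 over all tested genes, and it was 0.29 over its 14 genes above 0 in all libraries, of which 8 were higher and 6 lower, beside -0.19, 40.6% and 52.4% over all genes so kept. The list median was 0.53 after quantile normalization and 0.58 with a minimum of 5 TPM, where that of all tested genes was 0.51 and 0.59. Without a filter on low values it was 0.73, beside 0.27 over all genes. Median centring gave 22 higher and 4 lower genes (70.4% and 25.4% of all tested genes), and quantile normalization 18 and 9 (55.3% and 38.5%).

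Among the targets that promote cell death, 6 of 7 were higher, 4 of them from 0 in all controls, beside 61.6% and 33.8% of all tested genes. BAX, which permeabilizes the mitochondrial membrane, was listed at 0 in all controls and had 47.4, 47.1 and 47.0 TPM after MT. Of the DNA repair targets, 4 of 5 were higher, 3 of them from 0. RRM2B, a ribonucleotide reductase subunit, was listed at 0 in all controls, with 26.7, 27.0 and 27.8 TPM after MT. BAX and RRM2B were named for their large log2 differences, a choice that favors genes listed at 0 in controls.

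The other rises named from this list were those of PPM1D and RCHY1, whose products act back on p53. PPM1D, a phosphatase that turns off p53 signaling, was listed at 0 in all controls and had 28.1, 28.6 and 29.9 TPM after MT. RCHY1, a ubiquitin ligase for p53, had 0, 0.03 and 0 TPM in controls and 82.8, 87.4 and 84.7 TPM after MT.

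The 4 falls named from the list of other targets were those of GDF15, FBXW7, TIGAR and BTG2. GDF15, a stress cytokine, had 16.1, 15.1 and 16.3 TPM in controls and was listed at 0 in all libraries after MT. FBXW7, a substrate receptor of a ubiquitin ligase that degrades cyclin E, fell from 23.4 to 1.11 mean TPM (log2 fold change -3.53, limma, adjusted p = 2.28e-09). TIGAR, which lowers glycolytic flux, and BTG2, an antiproliferative gene, fell by 1.35 and 0.74 on the log2 scale (adjusted p = 1.69e-05 and 1.16e-05 by limma). The log2 fold change was -0.87 for TIGAR after median centring, and for BTG2 it was -0.26 after centring and -2.51 after quantile normalization.

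Regulators of p53 and MDM2 were described from 41 genes, of which 40 were tested. Of these, 23 were higher and 16 lower (57.5% and 40%), beside 61.6% and 34.1% of all tested genes. In all controls 9 of those 23 were at 0, beside 4037 of the 7367 tested genes called higher. Centring gave 29 higher and 11 lower genes, beside 70.4% and 25.4% of all tested genes, and quantile normalization gave 22 and 16, beside 55.3% and 38.5%. The list median was 0.49 on the log2 scale, 0.96 after centring and 0.24 after quantile normalization (1.12, 1.597 and 0.51 over all tested genes), and it was -0.13 over its 29 genes above 0 in all libraries, of which 12 were higher and 16 lower, beside a median of -0.19 and shares of 40.6% and 52.4% over all genes so kept. Of the kinases 6 of 9 and of the deubiquitinases 4 of 5 were higher as deposited, and 5 and 3 after quantile normalization, where the shares of all tested genes were 61.6% and 55.3%. Of the nucleolar proteins that can bind MDM2, 5 of 7 were lower as deposited, beside 34.1% of all tested genes, but 5 of these 7 were higher after median centring, beside 70.4%.

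ATM, the kinase that responds to double-strand breaks and phosphorylates p53 and MDM2, had 0, 0 and 0.02 TPM in controls and 26.9, 32.6 and 37.95 TPM after MT. CSNK1D, a casein kinase that phosphorylates p53, was listed at 0 in all controls and had 28.9, 29.8 and 29.2 TPM after MT. Of the 4 acetyltransferases of p53 in the list, CREBBP, KAT5 and KAT2B were higher and EP300 was lower, beside 61.6% and 34.1% of all tested genes. KAT5 and KAT2B were listed at 0 in all controls and had means of 7.07 and 13.7 TPM after MT. CREBBP was listed at 0 in all controls and had 17.2, 25.2 and 26.2 TPM after MT. EP300 had 34.2, 35.2 and 35.1 TPM in controls and 7.63, 8.14 and 8.09 TPM after MT (log2 fold change -2.0, limma, adjusted p = 1.16e-08). After quantile normalization the log2 fold change of EP300 was -3.44.

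Other regulators with large differences were 2 p53-binding proteins of the ASPP family, MTBP and HUWE1. TP53BP2, which directs p53 to death genes, was listed at 0 in all controls and had 14.9, 15.9 and 23.5 TPM after MT. The remaining ASPP gene of the list, PPP1R13B, was listed at 0 in all controls and had 3.27, 2.16 and 2.95 TPM after MT. PPP1R13L, the inhibitory member, fell from 16.9 to 3.01 mean TPM (log2 fold change -2.16, limma, adjusted p = 2.44e-08, and -3.30 after quantile normalization). MTBP, an MDM2-binding protein, fell from 85.5 to 7.18 mean TPM and HUWE1, a ubiquitin ligase for p53, from 84.9 to 17.4 mean TPM (log2 fold changes -3.41 and -2.23, adjusted p = 6.06e-06 and 7.60e-08 by limma).

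**Figure D4:**
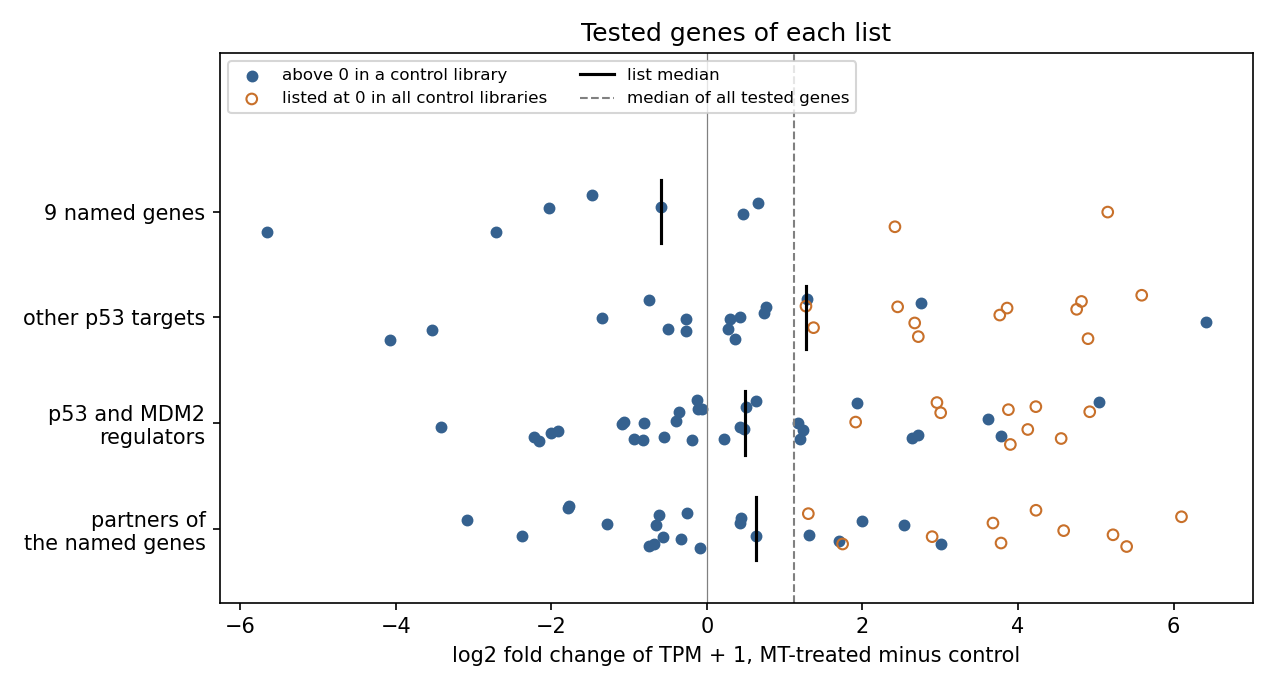
Log2 fold change of TPM + 1 (horizontal axis, MT-treated minus control) of the tested genes among the 9 genes, 27 other p53 targets, 40 regulators of p53 and MDM2 and 31 partners. Open circles are genes listed at 0 in all control libraries, whose values depend on the pseudocount. Bars are list medians (-0.60, 1.27, 0.49 and 0.63) and the dashed line is the median of all tested genes (1.12).

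Genes whose products act with the 9 genes were described from 35 genes, of which 31 were tested. Of these, 18 were higher and 13 lower (58.1% and 41.9%), beside 61.6% and 34.1% of all tested genes. In all controls 10 of those 18 were at 0, beside 4037 of the 7367 tested genes called higher. Centring gave 21 higher and 10 lower genes, beside 70.4% and 25.4% of all tested genes, and quantile normalization gave 19 and 11, beside 55.3% and 38.5%. The list median was 0.63 on the log2 scale and 1.11 after centring, below the 1.12 and 1.597 of all tested genes, but 0.70 after quantile normalization, above their 0.51. It was -0.34 over its 21 genes above 0 in all libraries, of which 8 were higher and 13 lower, beside -0.19, 40.6% and 52.4% over all genes so kept.

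The cyclins, kinases and PCNA that CDKN1A binds numbered 12 tested genes, of which 6 were higher and 6 lower as deposited, beside 61.6% and 34.1% of all tested genes. Centring gave 8 and 4, beside 70.4% and 25.4%. CCNE1 and CCNA2, cyclins of S-phase entry and progression, were listed at 0 in all controls and had 40.0 to 42.0 TPM and 66.4 to 68.4 TPM after MT. CCNE2, the paralog of CCNE1, had 34.3 to 35.9 TPM in controls and 5.35 to 6.46 TPM after MT (log2 fold change -2.37, and -3.66 after quantile normalization). CCND2, a cyclin of early G1, fell from 298 to 85.4 mean TPM (log2 fold change -1.79, limma, adjusted p = 1.00e-08). The related inhibitors CDKN1B and CDKN1C, outside the 9 genes, did not follow CDKN1A in the deposited values. CDKN1B rose from 1.39, 1.56 and 1.56 to 6.84, 7.09 and 6.58 TPM (log2 fold change 1.65, limma, adjusted p = 1.08e-07), but its log2 fold change was -1.03 after quantile normalization. CDKN1C had 0, 0.04 and 0 TPM in controls and 8.13, 8.06 and 9.22 TPM after MT, a difference no longer called after quantile normalization (limma, adjusted p = 0.0530).

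Partners of the GADD45 proteins in kinase signaling and demethylation numbered 4, of which 2 were higher and 2 lower, beside 61.6% and 34.1% of all tested genes. TDG, the glycosylase that removes oxidized methylcytosine together with GADD45A, had 36.4, 36.6 and 36.9 TPM in controls and 3.64, 3.50 and 3.19 TPM after MT (log2 fold change -3.08, limma, adjusted p = 5.57e-09). Among the GATOR, AMPK and stress partners of the sestrins, 6 of 9 were higher, a share near the 61.6% of all tested genes. NPRL2, a subunit of GATOR1, was listed at 0 in all controls and had 36.0 to 36.6 TPM after MT. WDR59, a subunit of GATOR2, fell from 90.7 to 25.8 mean TPM (log2 fold change -1.78, limma, adjusted p = 5.54e-09). Of the 6 genes listed as partners of TP53INP1, 4 were higher, also near that share, among them PRKCD, a kinase of stress signaling, which was listed at 0 in all controls and had 21.9 to 24.6 TPM after MT.

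The genes most like MDM2 in their 6 values, by Euclidean distance on the log2(TPM + 1) scale, were NPAS3 and BCAR3, at distances of 0.0214 and 0.0388. NPAS3 had 35.4, 32.8 and 34.8 TPM after MT and was listed at 0 in all controls. The genes most like CDKN1A were EXOC1 and EPM2AIP1, at distances of 0.196 and 0.219.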

How the data were processed

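The values deposited are TPM of each gene in each library, given to 2 decimals. Per the paper and the labels, quality control of the reads was done with fastp 0.20.1 and FastQC 0.11.9. Reads were then aligned with STAR 2.7.9a and counted with featureCounts (Subread 1.6.3). The paper names the genome ARS-UCD1.3 and Smart-seq2 libraries, whereas the labels name ARS-UCD1.2 and a TruSeq kit. How counts became TPM, and whether strand was used, is not given in the sources used here. TPM keeps no counts, so the counting error of a value cannot be derived from it. The study tabulated the sequencing depth of its libraries, which was not used here.

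Groups and replicate numbers came from the labels, and the MT concentration, times, pools and 3 production runs per group from the paper. Genes that reached 1 TPM in 3 or more libraries were fitted as log2(TPM + 1) in limma 3.58.1 (R 4.3.3) with an intensity trend, without a block, and p-values were adjusted over all 11953 genes at a threshold of 0.05. Single values were compared with exact permutation tests in scipy 1.17.1. On simulated data with 11953 genes the fit recovered 96.5% of 200 changed genes with 12 false calls. In the deposited data 95.7% of the tested genes were called, and the performance of the fit at such a share was not tested. The genes and lists, written from general knowledge, were chosen with earlier results of these data known. Named genes were the 9 genes, 4 paralogs, up to 4 rises and 4 falls per list whose groups do not overlap, and the 2 genes nearest to MDM2 and to CDKN1A. KAT5, KAT2B and PPP1R13B were named beyond this rule, after their values were seen, to give all acetyltransferases and ASPP genes of the list. Markers were named to check the tissue. Alternatives were another pseudocount, filters, scalings, genes with a symbol, no trend, a replicate block and each library left out. Names were matched by symbol to RefSeq (ARS-UCD2.0), where all 9 genes were found. As that build differs from the study's, no coordinates are given.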

Additional observations from a re-analysis of the deposited data

How the results depend on the processing

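Without each library in turn, 7319 to 7338 genes were higher and 4004 to 4049 lower, 4 of the 9 genes stayed higher and 5 lower, and the other targets (20 higher, 7 lower) and partners (18 higher, 13 lower) kept their counts, while the regulators kept 23 higher and had 15 to 16 lower genes. The count of higher genes among the 9 was 2 with a minimum of 5 TPM, which left 7 of them tested, 2 after quantile normalization and 2 among genes above 0 in all libraries. The last restriction, chosen after seeing the data, removes genes that rose from 0 and gave 2814 higher genes in all, 8 among the other targets, 12 among the regulators and 8 among the partners, and turned the list medians of the regulators and partners to -0.13 and -0.34, as it did that of all tested genes (-0.19). Median centring left 4 lower genes among the other targets. Quantile normalization reversed GADD45B (-1.5), TP53INP1 (-1.63) and CDKN1B (-1.03). The cause of the change under quantile normalization was not tested. Over the 9 genes, 127 values under the alternatives kept their direction and call, 1 (SESN2 after median centring, -0.12) lost its call and 2 were reversed. With the replicate block, 7379 genes were higher and 4082 lower, with 17 lower genes among the regulators, and 4 of the 9 genes were higher and 5 lower. Per the paper, the treatments were performed side by side in each production run, so control and MT-treated libraries can share a run. Whether equal replicate numbers mark a shared run is not stated. Deviations from the group means correlated between same-numbered libraries by -0.0115, -0.000679 and 0.0588 across 11953 genes. Not every library correlated best with its own number. These correlations cannot decide whether the libraries were paired by run. The precision is limited by 3 libraries per group, and TPM holds no counts from which the counting error of a value could be had.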

Other observations

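The protein-coding genes next to the 3 genes listed at or near 0 in one group were looked up in the RefSeq annotation of ARS-UCD2.0 after their values were seen. Beside MDM2, SLC35E3 was also listed at 0 in all controls, with 8.57, 7.91 and 8.40 TPM after MT, while CPM on the other side overlapped between the groups, with 16.2 to 21.7 TPM in controls and 16.8 to 18.9 TPM after MT. Beside MDM4, LRRN2 had the opposite order, listed at 0 in all controls and with 45.6, 39.6 and 37.6 TPM after MT, and PIK3C2B had at most 0.06 TPM in any library. Beside SESN1, ARMC2 was listed at 0 in all controls and had 2.96, 2.84 and 1.96 TPM after MT, and CEP57L1 had 10.1, 9.03 and 9.32 TPM in controls and 0.04, 0.19 and 0.07 TPM after MT. Of all tested genes, 33.8% were called higher from 0 in all controls, so neighbours with this order are common.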
